A study of Brassica napus with 6 samples.

Results

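The distal blocks of chromosomes C08 and A09 in Brassica napus (oilseed rape) were taken as the genes numbered BnaC08g078080 to BnaC08g081730 and BnaA09g097940 to BnaA09g100740. They hold 375 genes on C08 and 285 on A09, together 660 of the 145279 genes in the table. The bounds were drawn from the difference between the 2 lines in these same leaves, so that difference is described here for the members and not tested. RNA came from DH6-47, a hairy doubled haploid line, and from DH6-110, a glabrous doubled haploid line that is near-isogenic to it, both bred from Quantum/LG3260 and CN113136. Each library was 1 very young leaf, the third of its plant. The labels list 6 leaves, 3 per line, and replicates 1 and 3 of each line were measured in the table (n = 2 leaves per line); the replicate 2 leaves were not analysed here. Each line is 1 genotype, so a difference between the leaves is one between these 2 lines and cannot be assigned to trichomes. These are bulk leaves, in which fewer cells of a type and less RNA per cell cannot be told apart. The 4 leaves had 40929 to 42474 genes at 1 TPM or more in hairy and 39919 to 43209 in glabrous. LHCB1.1, a light-harvesting protein of leaves, had 1339 and 1692 TPM in hairy and 2396 and 3125 TPM in glabrous, and the seed storage gene CRA1 was listed at 0 in all 4 leaves. Another seed storage gene, SESA1, had 6.32 and 11.4 TPM in hairy, against 1.35 and 1.86 TPM in glabrous, and the copies matched to RBCS1A, the small subunit of Rubisco, were listed at 0 in 3 of 4 leaves; the part of either in the results was not tested.

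Brassica napus is an allotetraploid, which carries an A genome from Brassica rapa and a C genome from Brassica oleracea. Most genes therefore exist as homoeologues, an A copy and a C copy of similar sequence and usually similar function. Homoeologous chromosome segments can replace each other in this species, so that a line may carry extra copies of one and none of the other, and such exchanges are a known source of variation among its cultivars. TPM, a length-corrected share of a library's transcripts, is here the sum over the transcript models of a gene. Where the copies are nearly identical, reads of one may have been placed on the other.

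Most members with a code matched the same Arabidopsis chromosome arm in the same order in both blocks. Of the 319 C08 members with a single TAIR (Arabidopsis) gene code, 275 (86.2%) had a code on Arabidopsis chromosome 1. Of these, 264 lay between AT1G01050 and AT1G08450, and the rest lay further along that chromosome. On A09, 236 of 266 members (88.7%) had a code on that chromosome, and 231 of them lay between AT1G02170 and AT1G08380. Within these spans the codes ran against the gene numbers, with a Spearman rho of -0.990 over 264 C08 genes and of -0.990 over 231 A09 genes. Codes outside the spans were left out of the rho, which describes position and was not tested.

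Of the C08 members, 165 reached 1 TPM in any leaf and 160 were listed at 0 in all 4. On A09, 148 reached 1 TPM in any leaf and 101 were listed at 0 in all 4. A gene with at least 1 TPM in at least 2 leaves entered limma's test on log2(TPM + 1) over all 44247 such genes, and a call is an adjusted p under 0.05 over all of them. Of all tested genes, 9.72% were called, 5.24% higher in hairy and 4.48% lower. On C08, 110 of 152 tested members were called higher in hairy and 3 lower. On A09, 1 of 141 tested members was called higher and 9 lower. These counts need all 4 leaves: without hairy leaf 1, hairy leaf 3, glabrous leaf 1 or glabrous leaf 3, in that order, the C08 calls higher in hairy were 51, 62, 59 and 89, and the A09 calls lower were 1, 0, 4 and 6. The leaves of the lines did not overlap in the hairy-higher direction for 128 C08 members and in the glabrous-higher direction for 7, against 21.4% and 17.4% of all tested genes. The A09 members stood the other way round, with 7 hairy-higher and 75 glabrous-higher. The median log2 difference, hairy minus glabrous, was 2.14 over the tested C08 members, -0.70 over the tested A09 members and 0.03 over all tested genes. The bounds were chosen on this contrast, so nothing about the members is read from these counts. The stretches, shares and sums below come from the same values in the same leaves. They describe where along the blocks the difference lay and how each pair divided, and are not independent of the choice of bounds.

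Along the gene order the C08 block fell into 4 stretches and the A09 block into 3, whose borders were set after the values were seen. The first, called the shared start, runs to BnaC08g078400 and BnaA09g098200, and most of its copies overlapped between the lines; 7 of its 21 tested C08 genes did not overlap with hairy higher and 3 with glabrous higher. The main stretch, BnaC08g078410 to BnaC08g081290 with BnaA09g098210 to BnaA09g100630, was where C08 genes were high in hairy and close to 0 in glabrous. A second stretch, BnaC08g081300 to BnaC08g081590 with BnaA09g100640 to BnaA09g100740, had A09 copies that were low in hairy. The end stretch, BnaC08g081600 to BnaC08g081730, has its A09 counterparts outside the block.

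The summed TPM of the 294 C08 genes of the main stretch was 2207 and 2145 in the hairy leaves, against 63.9 and 62.7 in the glabrous leaves. The 245 A09 genes opposite summed to 1967 and 1924 TPM in hairy, against 4094 and 4049 TPM in glabrous. Within each line the leaves lay close together, and the lines did not overlap on either chromosome. The 35 C08 genes of the shared start summed to 1548 and 1628 TPM in hairy and 1760 and 1327 TPM in glabrous, with overlap. Of the C08 genes tested, 103 of 114 were called higher in hairy in the main stretch and 2 of 21 in the shared start. C08 genes outside the block were called higher in 99 of 2267 cases.

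Genes on in 1 line only were defined as those with at least 1 TPM in both leaves of that line and under 0.1 TPM in both leaves of the other. In the whole table, 1.43% of the genes on in a line were on in hairy only and 1.73% in glabrous only. On C08, 61 of 152 members were on in hairy only and 2 in glabrous only. On A09, 0 of 136 members were on in hairy only and 2 in glabrous only. The first hairy-only C08 member was BnaC08g078600 and the last BnaC08g081420, and 60 of the 61 lay in the main stretch. Their mean in hairy ran from 1.17 to 25.4 TPM with a median of 5.34 TPM, so most were weakly expressed genes.

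The highest hairy-only member was BnaC08g079340, matched to AT1G06380 of the ribosomal L1p/L10e family, with 20.5 and 30.4 TPM in hairy and 0 in both glabrous leaves. RLP54, a receptor-like protein (BnaC08g080122), had 19.1 and 13.1 TPM in hairy, against 0.027 and 0.040 TPM in glabrous. TPX2, a spindle assembly factor (BnaC08g080850), had 14.1 and 8.73 TPM in hairy, against 0 and 0.087 TPM in glabrous. The metacaspase MC1, a protease of plant cell death (BnaC08g079370), had 11.6 and 11.4 TPM in hairy and was listed at 0 in glabrous. All 4 are genes of unrelated roles, and the hairy leaves were above the glabrous leaves for each. The hairy-only members of at least 5 TPM without a partner of the same code on A09 were 3. BnaC08g079390, matched to MEE5, a GTPase of the elongation factor family, had 16.8 and 10.9 TPM in hairy, against 0 and 0.094 TPM in glabrous. BnaC08g081110, matched to AT1G54590, a Prp18-domain splicing gene, had 11.4 and 8.28 TPM in hairy and 0 in glabrous. BnaC08g081420, which has no Arabidopsis match, had 7.18 and 3.71 TPM in hairy and 0 in glabrous.

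The 4 glabrous-only members were low. They were 1.32% of the C08 and 1.47% of the A09 members on in a line, near the 1.73% of the whole table. HFR1, a bHLH factor of light signalling in Arabidopsis, had its C08 copy BnaC08g081570 at 0 in both hairy leaves, against 1.69 and 2.36 TPM in glabrous. BnaC08g081000, matched to the pyruvate dehydrogenase E1 alpha gene AT1G01090, was at 0 in hairy, against 5.95 and 2.08 TPM in glabrous. On A09 they were LSH6 (BnaA09g098680), at 0 in hairy and 1.25 and 1.33 TPM in glabrous, and BnaA09g100740, an MRG-family chromatin gene described with the second stretch. The third C08 gene called lower in hairy was BnaC08g079200, matched to the nucleotide-sugar transporter AT3G17430, with 0.25 and 0.57 TPM in hairy, against 3.29 and 2.69 TPM in glabrous. These 3 C08 genes went against the direction of the 110.

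Copies were paired where a TAIR code belonged to exactly 1 C08 member and 1 A09 member. This gave 189 pairs, of which 125 had a mean total of at least 1 TPM and were used, 104 of them in the main stretch, 18 in the shared start and 3 in the second stretch. For comparison, 6586 pairs in the whole table had a code with 1 copy on all A and 1 on all C chromosomes. Of these, 4830 had a mean total of at least 1 TPM and are called all pairs below. That rule is stricter than the one for the blocks, whose codes may have further copies elsewhere, so the shares of all pairs are an unlike comparison. The C08 share of a pair is the C08 copy's TPM as a percentage of the pair's total. In the hairy leaves the median C08 share of the 125 pairs was 52.0% and 54.3%, against 0.297% and 0.665% in the glabrous leaves. In the 18 pairs of the shared start it was 57.2% in hairy and 55.1% in glabrous, and over all A and C pairs 51.0% in hairy and 52.0% in glabrous. The C08 share was under 5% in glabrous in 91 of the 125 pairs, all 91 of them in the main stretch; 4.00% of all pairs were that low in glabrous and 6.89% in hairy.

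**Figure D1:**
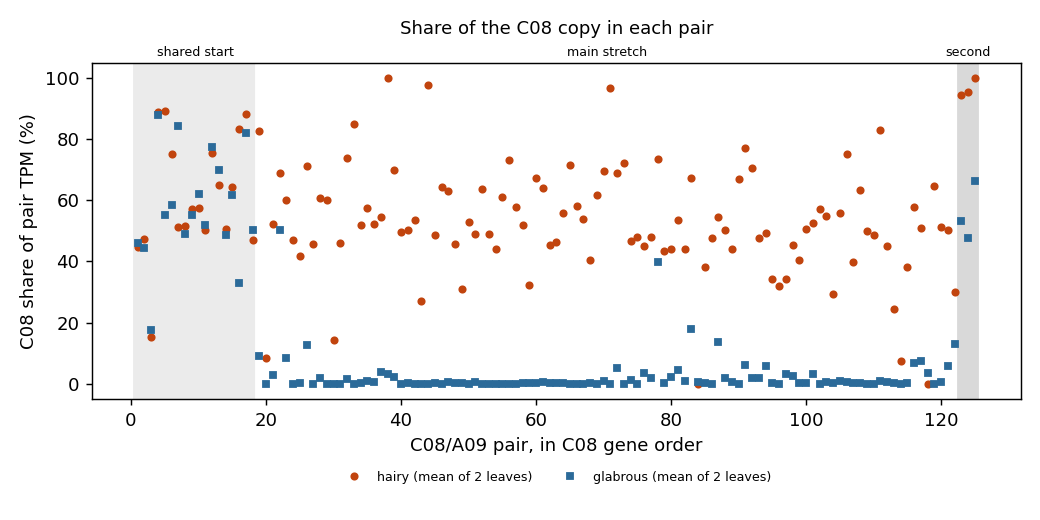
Share of the C08 copy in the pair's TPM (percent) for the 125 pairs in C08 gene order, hairy as circles and glabrous as squares, each from the mean of 2 leaves. The lines mostly lie together in the shared start, part at the main stretch, where 91 of 104 glabrous squares are under 5%, and lie high in hairy and near the middle in glabrous for the 3 pairs of the second stretch.

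In the plot the glabrous shares fall near the start of the main stretch, a border that was set after the values were seen. Among the first pairs there, AT5G59850 still had a glabrous share of 9.19% and AT1G07590 one of 50.3%. The glabrous squares of the main stretch hold 13 exceptions of at least 5%, most of them low genes. They include the glutamate receptor GLR3.4, the cell cycle kinase WEE1 and the ribosomal gene AT3G04400. In the main stretch 10 C08 genes had at least 1 TPM in both glabrous leaves. In 76 main-stretch pairs of at least 5 TPM the C08 copy was detected at any level in hairy. In these the C08 copy in glabrous had a median of 0.679% of its hairy level. It was under 1% in 45 and over 10% in 5.

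The A09 partners were the higher copies in glabrous. In the 104 main-stretch pairs the A09 copy was lower in hairy in 95 and higher in 9, against 46.7% of all pairs with the A copy lower. The median log2 difference of the A09 copy was -0.73 (quartiles -1.02 and -0.42), and that of the C08 copy was 2.58. In linear terms, over the 77 pairs of at least 5 TPM, the A09 copy in hairy had a median of 0.544 of its glabrous level (quartiles 0.425 and 0.653). Single A09 genes seldom passed the test: 6 of 117 in the main stretch were called lower and 1 higher.

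Sums of both copies differed much less than the copies. Over the 104 main-stretch pairs the C08 copies totalled 1985 and 2000 TPM in hairy, against 48.7 and 46.2 TPM in glabrous. Their A09 partners totalled 1832 and 1825 TPM in hairy, against 3906 and 3761 TPM in glabrous. The pair sums totalled 3817 and 3825 TPM in hairy and 3954 and 3807 TPM in glabrous, which overlap. Hairy over glabrous, these are ratios of 42.0 for C08, 0.477 for A09 and 0.985 for the sum. That last ratio rests on the 2 pairs of highest total, PSBP1 and RPS15: without them the sums were 2557 and 2313 TPM in hairy and 2011 and 2049 TPM in glabrous, a ratio of 1.20, while C08 and A09 gave 33.0 and 0.534.

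Pair by pair, the median log2 difference of the sum was 0.16 in the main stretch (quartiles -0.14 and 0.56) and 0.00 over all A and C pairs. The sum lay within 0.5 on the log2 scale in 81 of the 125 pairs (64.8%), against 75.7% of all pairs. It was more than 1 higher in hairy in 13 pairs and more than 1 lower in 0, against 4.64% and 2.42% of all pairs. The leaves did not overlap in 37 pairs with hairy higher and 9 with glabrous higher, against 15.0% and 14.0% of all pairs. The median over the 125 pairs, 0.16, moved with single leaves: it was 0.00 without glabrous leaf 1 and 0.38 without glabrous leaf 3.

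**Figure D2:**
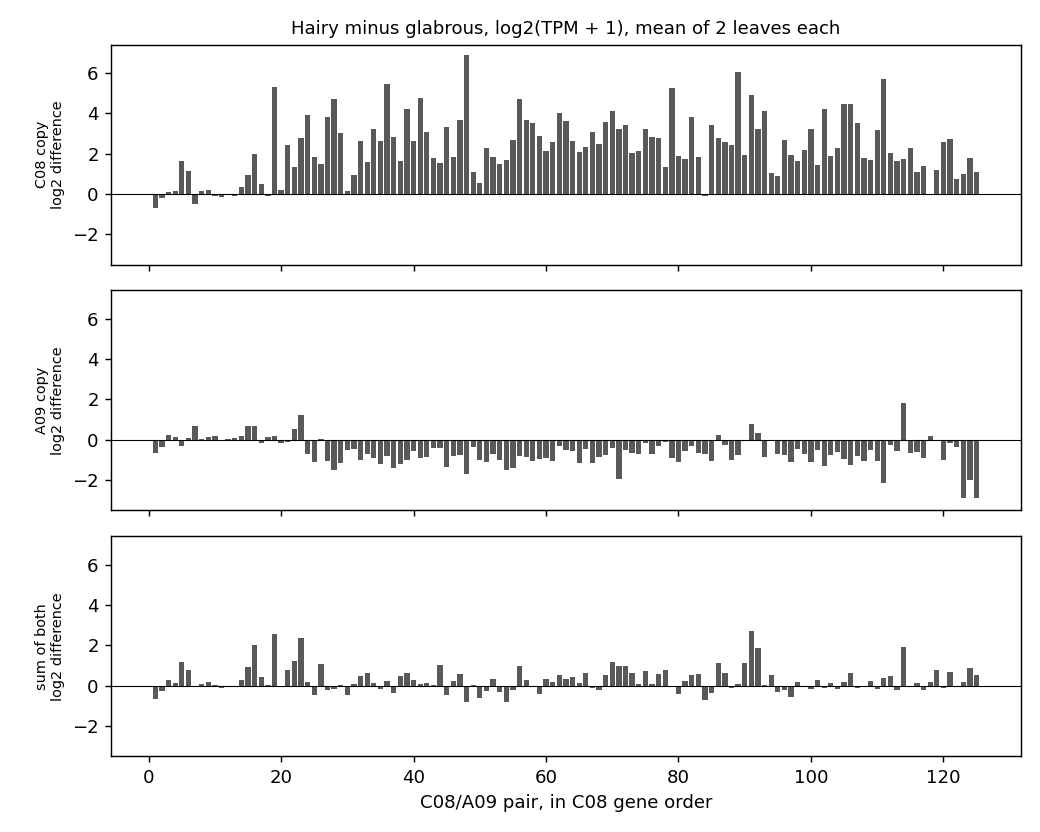
Log2 difference, hairy minus glabrous, of the mean log2(TPM + 1) of 2 leaves per line, for the C08 copy (top), the A09 copy (middle) and their sum (bottom) of the 125 pairs in C08 gene order. After the shared start the C08 bars point up and most A09 bars down, with medians of 2.58 and -0.73 in the main stretch, and the bars of the sums have a median of 0.16.

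The bars by gene order also include a few C08 copies of the shared start that differed, the largest being the protein kinase gene AT1G07870 (BnaC08g078380), with 5.62 and 1.80 TPM in hairy, against 0 and 0.16 TPM in glabrous. The first gene of the main stretch, which is not among the pairs, was an ECA4 copy, of an epsin-like adaptor: BnaC08g078410 had 11.0 and 7.49 TPM in hairy, against 0.50 and 1.03 TPM in glabrous. A09 partners of the first main-stretch pairs did not stand apart with hairy lower. BnaA09g098240, of the ribosomal S8 family, overlapped, with 27.3 and 35.7 TPM in hairy and 29.5 and 25.4 TPM in glabrous. Others stood apart with hairy higher: BnaA09g098310, matched to AT1G07570, had 5.22 and 3.51 TPM in hairy, against 1.09 and 1.41 TPM in glabrous. BnaA09g098300, matched to AT1G07590, had 1.59 and 1.92 TPM in hairy, against 0.61 and 1.26 TPM in glabrous. Among the main-stretch pairs, the first A09 copy lower in hairy without overlap was BnaA09g098340, matched to AT4G05460. It had 13.9 and 18.5 TPM in hairy, against 22.9 and 31.6 TPM in glabrous. Within this stretch C08 copies were higher in hairy at an earlier gene than that, counted from a border set after the values were seen. In the shared start, 3 tested A09 genes were already glabrous-higher without overlap, BnaA09g097940 and BnaA09g097950 among them, and 2 were hairy-higher.

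PCNA1, the sliding clamp of DNA replication, was a pair with large opposite differences. Its C08 copy BnaC08g078750 had 178 and 159 TPM in hairy, against 7.49 and 4.06 TPM in glabrous. Its A09 copy BnaA09g098520 had 120 and 98.6 TPM in hairy, against 362 and 261 TPM in glabrous. Neither copy overlapped between the lines, but the sums of 297 and 258 TPM in hairy and 370 and 265 TPM in glabrous did. LIG1, the replicative DNA ligase, lies in the shared start, and its C08 copy overlapped between the lines at 13.9 and 6.52 TPM in hairy and 4.96 and 14.4 TPM in glabrous. Its A09 copy did so too, at 10.7 and 7.46 TPM in hairy and 6.74 and 11.5 TPM in glabrous.

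Photosynthesis genes showed both kinds of pair. PSBP1, a subunit of the oxygen-evolving complex of photosystem II, had a C08 copy at 270 and 291 TPM in hairy, against 0.33 and 3.18 TPM in glabrous. The A09 copy had 309 and 359 TPM in hairy, against 958 and 1231 TPM in glabrous. Its sums did not overlap, with 579 and 650 TPM in hairy, against 958 and 1235 TPM in glabrous, a log2 difference of -0.83. A copy of PSBP1 on A08, outside the blocks, had 246 and 305 TPM in hairy, against 370 and 445 TPM in glabrous, which was also lower in hairy without passing the test. TRXM1, a chloroplast thioredoxin, had a C08 copy at 70.1 and 83.4 TPM in hairy, against 0.19 and 0.85 TPM in glabrous. Its A09 copy had 17.2 and 13.8 TPM in hairy, against 75.7 and 65.7 TPM in glabrous. The TRXM1 sums were close but did not overlap, at 87.4 and 97.2 TPM in hairy and 75.9 and 66.6 TPM in glabrous. PSAO, a subunit of photosystem I in the shared start, had C08 shares of 44.9% in hairy and 45.9% in glabrous. Its sums were 349 and 637 TPM in hairy and 766 and 730 TPM in glabrous, both copies being lower in hairy.

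Ribosomal and translation genes made up several of the highest pairs. RPS15, of the small ribosomal subunit, had a C08 copy at 310 and 370 TPM in hairy, against 4.79 and 3.45 TPM in glabrous. The A09 copy had 371 and 492 TPM in hairy, against 980 and 520 TPM in glabrous, and the sums overlapped, at 682 and 862 TPM in hairy and 985 and 524 TPM in glabrous. The chloroplast L6 gene AT1G05190 and the gamma subunit gene of initiation factor eIF2 (AT1G04170) were alike in this, with sums that differed by -0.07 and 0.03 on the log2 scale. The ribosomal S8 gene AT5G59850 was not: its C08 copy BnaC08g078470 had 126 and 176 TPM in hairy, against 3.17 and 2.41 TPM in glabrous, while the A09 copy overlapped. Its sums were 153 and 212 TPM in hairy, against 32.7 and 27.8 TPM in glabrous, 2.54 higher on the log2 scale. A further copy of this gene, BnaC02g013450, had 95 and 116 TPM in hairy, against 0 and 0.44 TPM in glabrous. AT3G04400, a ribosomal L14p/L23e gene, kept a C08 level in glabrous, with 73.0 and 114 TPM in hairy, against 18.4 and 11.1 TPM in glabrous. Among its copies on other chromosomes, BnaA01g064230 had 25.5 and 35.2 TPM in hairy and BnaC05g081792 had 192 and 267 TPM. No glabrous leaf of either was above 0.76 TPM.

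**Figure D3:**
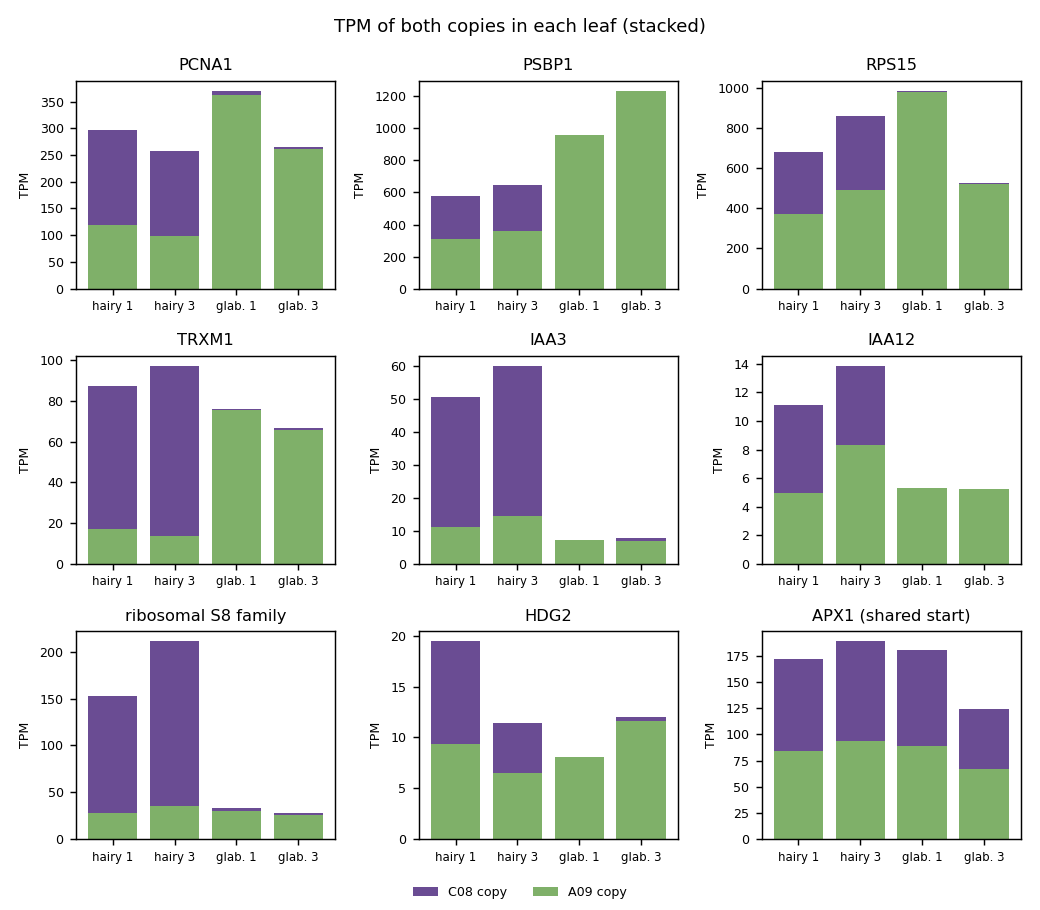
TPM of the C08 copy (purple) stacked on the A09 copy (green) in hairy leaves 1 and 3 and glabrous leaves 1 and 3, for 8 pairs of the main stretch and APX1 of the shared start. Purple is nearly absent from the glabrous bars except for APX1. The bar heights of PCNA1, RPS15 and HDG2 overlap between the lines. Those of IAA3, IAA12, TRXM1 and the ribosomal S8 gene do not overlap, with hairy higher, and those of PSBP1 do not, with glabrous higher.

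The stacked bars separate pairs by whether the A09 copy was higher in glabrous or not. APX1, a cytosolic ascorbate peroxidase that removes hydrogen peroxide, serves as an example from the shared start. It had 87.7 and 95.7 TPM from C08 in hairy and 91.3 and 57.7 TPM in glabrous, and 84.4 and 93.6 TPM from A09 in hairy and 89.3 and 66.4 TPM in glabrous. Both copies were present in every leaf.

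Auxin genes included pairs with large differences in the sum. IAA3, IAA12 and IAA17 are Aux/IAA proteins, repressors of auxin-responsive transcription that are degraded when auxin is present, and AXR1 is a subunit of the enzyme that activates their ubiquitin ligase. All 4 had C08 copies called higher in hairy, and none had an A09 copy called in either direction. The C08 copy of IAA3 (BnaC08g080580) had 39.6 and 45.7 TPM in hairy, against 0.18 and 0.76 TPM in glabrous. Its A09 copy BnaA09g100100 had 11.2 and 14.4 TPM in hairy, against 7.16 and 6.98 TPM in glabrous, without overlap but also without a call. The sums, 50.8 and 60.1 TPM in hairy against 7.34 and 7.73 TPM in glabrous, differed by 2.72 on the log2 scale, more than for the other pairs of at least 5 TPM. IAA12 had a C08 copy at 6.17 and 5.53 TPM in hairy and 0 in glabrous, while its A09 copy overlapped at 4.97 and 8.32 TPM in hairy and 5.34 and 5.22 TPM in glabrous. Its sums were 11.1 and 13.9 TPM in hairy, against 5.34 and 5.22 TPM in glabrous. IAA17 was a low gene, with its C08 copy at 3.49 and 2.32 TPM in hairy and 0 in glabrous, and its A09 copy overlapping. AXR1 had a C08 copy at 5.52 and 2.47 TPM in hairy, against 0.077 and 0.51 TPM in glabrous. Its A09 copy had 5.77 and 3.83 TPM in hairy, against 8.97 and 14.0 TPM in glabrous, and the AXR1 sums overlapped.

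Of the 12 genes on the epidermis and trichome list, HDG2 and SPI had members. HDG2 is a homeodomain factor of the epidermis. Its C08 copy BnaC08g079990 had 10.1 and 5.00 TPM in hairy, against 0.033 and 0.38 TPM in glabrous, and was called. The A09 copy had 9.35 and 6.45 TPM in hairy and 8.09 and 11.7 TPM in glabrous, and the sums overlapped at 19.5 and 11.4 TPM in hairy and 8.12 and 12 TPM in glabrous. SPI, a BEACH-domain protein that Arabidopsis trichomes need for their shape, had a C08 copy at 6.00 and 1.85 TPM in hairy and 0.21 and 1.35 TPM in glabrous, which was not called. Its A09 copy, at 7.17 and 1.45 TPM in hairy and 4.76 and 11.2 TPM in glabrous, overlapped, as did the sums.

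Single genes of the other lists followed the main stretch. RABA1A, a small GTPase of vesicle traffic, had its C08 copy at 4.90 and 5.84 TPM in hairy and 0 in glabrous, and its A09 copy at 3.96 and 2.93 TPM in hairy, against 8.01 and 13.6 TPM in glabrous. HPPD, an enzyme of tyrosine breakdown and tocopherol synthesis, had its C08 copy at 3.78 and 4.49 TPM in hairy, against 0 and 0.14 TPM in glabrous. BBX24, a B-box factor of light signalling, had its C08 copy at 12.8 and 19.7 TPM in hairy, against 0 and 0.10 TPM in glabrous. Each of the 3 C08 copies was called higher in hairy, and none of the 3 A09 copies was called. Over the 12 lists, which were written with earlier results known, C08 calls were 1 higher of 2 tested for epidermis and trichome, 0 of 1 for cuticle, 1 of 1 for wall and cytoskeleton, 1 of 2 for replication and 1 of 2 for translation. They were 2 of 3 for photosynthesis, 1 of 2 for light and clock with HFR1 lower, 4 of 4 for hormone signalling, 0 of 1 for stress and 1 of 1 for metabolism. These stand beside 72.4% of all tested C08 members and 90.4% of those of the main stretch called higher, so nothing about a list is read from them. The histone and small RNA lists had no member. A09 calls on the lists were lower for PCNA1, RPL19A, PSBP1 and TRXM1 and higher for none.

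The pairs whose sums differed most were the following 6 of those at 5 TPM or more, IAA3 and the ribosomal S8 gene among them. APK1A, a protein kinase, had sums of 10.3 and 12 TPM in hairy, against 1.31 and 1.41 TPM in glabrous. AT1G03220, an aspartyl protease gene, had an A09 copy that was higher in hairy. This copy, BnaA09g100500, had 26.7 and 37.1 TPM in hairy, against 9.06 and 7.39 TPM in glabrous, and was the 1 A09 member called higher. AT1G04210, a leucine-rich repeat kinase gene, had sums of 19.3 and 7.97 TPM in hairy, against 1.55 and 4.51 TPM in glabrous. The selenoprotein-family gene AT1G05720 had 18.8 and 32.4 TPM in hairy, against 14.1 and 7.57 TPM in glabrous. All 6 were higher in hairy, and the hairy leaves did not overlap with the glabrous leaves in any of them.

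**Figure D4:**
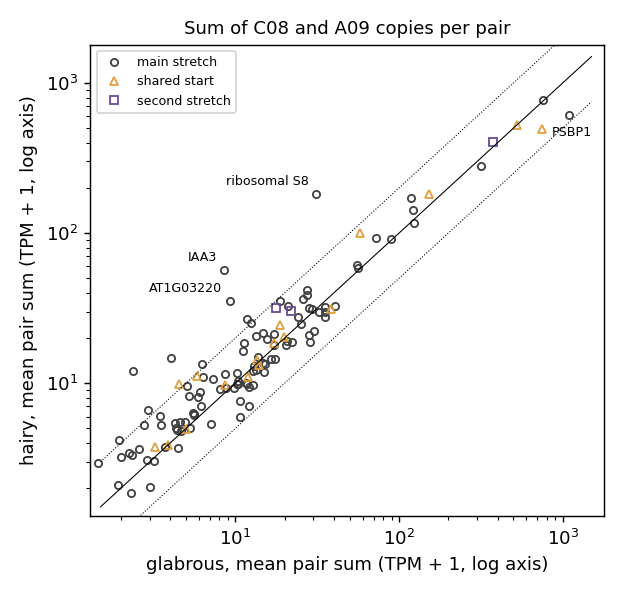
Mean sum of the C08 and A09 copies in hairy (y axis) against glabrous (x axis) for the 125 pairs, both as TPM + 1 on log axes, with the solid line at equal values and dotted lines at a log2 difference of 1 either way. Pairs follow the solid line. By the mean of log2(TPM + 1) over leaves, 13 pairs were more than 1 higher in hairy and 0 more than 1 lower. The points are drawn from mean sums, so a pair near a dotted line can lie on its other side.

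The scatter of sums also shows PSBP1 as the highest pair and the one of the high pairs that lies furthest to the glabrous side. Copies of the same genes elsewhere in the genome gave a measure that the bounds did not use. For 74 of the 104 codes a copy lay outside the blocks, 277 copies in all, of which 177 were tested. Of these, 7 were called higher in hairy and 1 lower (4.52% called, against 9.72% of all tested genes), with a median log2 difference of 0.11. The copies of AT3G04400 and AT5G59850 given above were among the 7, as was BnaS00019g0730, a further copy of AT3G04400. Other tested copies of these genes, such as BnaA08g043242 and BnaA08g041860, were not called. BnaA08g043810 and BnaC08g000610, which are further copies of AT1G03220, were also among the 7.

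In the second stretch the A09 copies were the low ones, in hairy. RPL19A, of the large ribosomal subunit, had an A09 copy BnaA09g100720 at 22.5 and 22.1 TPM in hairy, against 232 and 122 TPM in glabrous. Its C08 copy had 344 and 415 TPM in hairy, against 251 and 145 TPM in glabrous, and the sums overlapped. AT1G02750, of a drought-responsive family, had an A09 copy at 0.95 and 1.94 TPM in hairy, against 7.31 and 10.1 TPM in glabrous, and a C08 copy at 29.5 and 29.1 TPM in hairy, against 7.82 and 7.93 TPM in glabrous. AT1G02740, of the MRG family, had an A09 copy at 0.097 and 0 TPM in hairy, against 4.27 and 10.2 TPM in glabrous. The C08 copy had 34.2 and 24.7 TPM in hairy, against 9.28 and 18.2 TPM in glabrous. In all 3 pairs both copies were on in glabrous, and the C08 copy carried most of the pair in hairy, with a median share of 95.3% in hairy and 53.1% in glabrous. The C08 genes NIMIN1, an interactor of the immune regulator NPR1, and AT1G02660, of the alpha/beta hydrolases, were also called higher in hairy. NIMIN1 had 12.8 and 17.3 TPM in hairy, against 1.33 and 0 TPM in glabrous.

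The A09 bound did not end this pattern. Of the 3 expressed genes just beyond it, AT1G02660 (BnaA09g100770) was at 0 in both hairy leaves and at 15.1 and 39.0 TPM in glabrous. AT1G02410, of the COX11 assembly family (BnaA09g100870), was at 0 in hairy and at 1.72 and 4.61 TPM in glabrous, and HFR1 (BnaA09g100930) at 0 in hairy and at 0.085 and 1.24 TPM in glabrous. The C08 copy of AT1G02660 had 90.5 and 59.5 TPM in hairy, against 11.1 and 25.9 TPM in glabrous. Of the 41 A09 genes beyond the bound 10 were tested, and 3 were called higher and 3 lower.

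**Figure D5:**
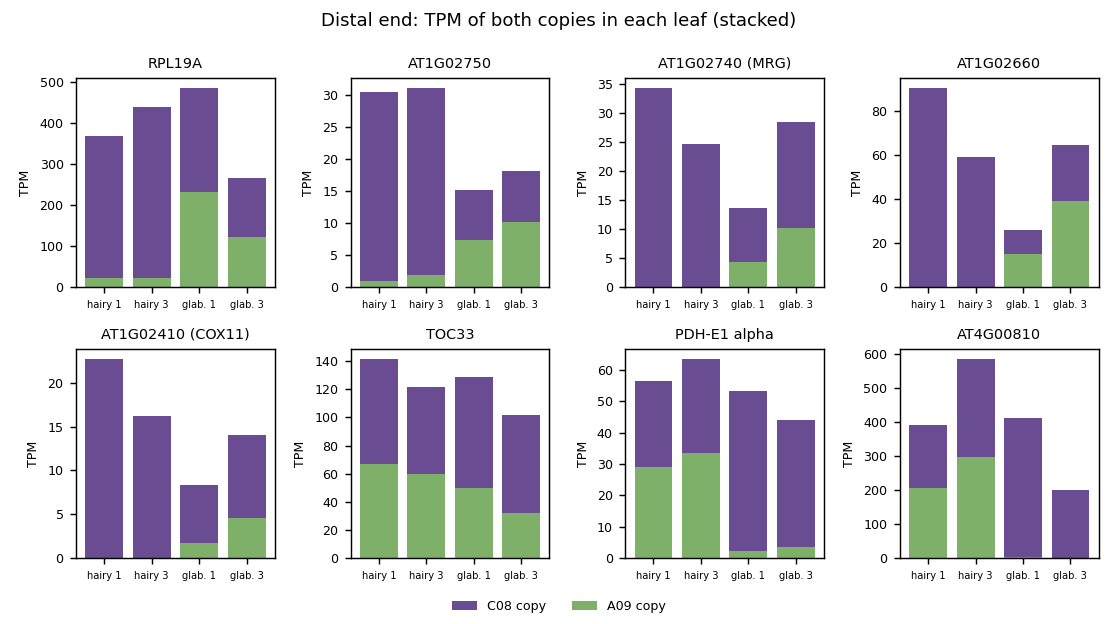
TPM of the C08 copy (purple) stacked on the A09 copy (green) in each leaf for 8 genes at the distal end, in C08 order; from AT1G02660 on, the A09 copies lie beyond the A09 bound. Green is small or absent in hairy up to AT1G02410, present in all 4 leaves in TOC33, and small or absent in glabrous in PDH-E1 alpha and AT4G00810.

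The stacked bars of the distal end change again after AT1G02410. TOC33, a receptor of the chloroplast import machinery, had both copies in every leaf: C08 at 74.4 and 61.8 TPM in hairy and 79.1 and 69.9 TPM in glabrous, and A09 (BnaA09g100960) at 66.9 and 59.6 TPM in hairy, against 49.7 and 32.0 TPM in glabrous. Pyruvate dehydrogenase E1 alpha, which feeds acetyl-CoA to fatty acid synthesis, had an A09 copy BnaA09g101080 at 28.9 and 33.6 TPM in hairy, against 2.38 and 3.49 TPM in glabrous. Its C08 copy BnaC08g081680 had 27.5 and 29.8 TPM in hairy, against 50.8 and 40.4 TPM in glabrous. The acidic ribosomal gene AT4G00810 was alike on A09, where BnaA09g101090 had 207 and 299 TPM in hairy, against 2.88 and 1.1 TPM in glabrous, while its C08 copy overlapped at 185 and 287 TPM in hairy and 411 and 201 TPM in glabrous. Not all genes at this end were alike: the A09 copy of the pyrophosphatase gene AT1G01050, BnaA09g101040, was at 0 in hairy, against 4.94 and 2.70 TPM in glabrous, and was called lower.

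Each outer C08 bound lay at a called gene whose nearest expressed neighbours, inside and outside, were not called. At the first bound, CRT3, a calreticulin of protein folding in the endoplasmic reticulum (BnaC08g078080), had 36.5 and 31.5 TPM in hairy, against 6.67 and 9.07 TPM in glabrous, and was called higher. Its A09 copy BnaA09g097910, just outside the A09 bound, had 11.4 and 10.4 TPM in hairy, against 2.39 and 4.99 TPM in glabrous, which went the same way without a call. The next genes inside were the phosphatase BSL2 with 5.62 and 2.30 TPM in hairy and 1.74 and 5.5 TPM in glabrous, which overlapped, and PSAO. Just outside lay HDA8, a histone deacetylase, with 3.12 and 4.24 TPM in hairy and 3.51 and 2.77 TPM in glabrous, YAB2 and ENODL18, and each of the 3 overlapped between the lines. Of the 25 tested genes before the C08 bound 2 were called higher and 0 lower, and of the 25 before the A09 bound 1 and 0. The first A09 members, PSAO, the decapping gene DCP1 and WIP3, were not called.

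At the last C08 bound, CIPK9, a kinase of calcium signalling (BnaC08g081730), had 118 and 109 TPM in hairy, against 13.2 and 15.1 TPM in glabrous, and was called higher. Its A09 copy BnaA09g101130 had 10.2 and 3.64 TPM in hairy and 0 and 6.21 TPM in glabrous, with overlap. KCS1, an enzyme of wax and long-chain fatty acid synthesis, had 18.2 and 14.3 TPM in hairy and 16.6 and 48.1 TPM in glabrous, again with overlap. Of the 2 genes beyond, GIF3, a coactivator of growth-regulating factors, reached 1 TPM, with 109 and 78.3 TPM in hairy and 82.1 and 88.4 TPM in glabrous. CIPK9 was the 1 called gene of 7 tested in the end stretch.

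The species of the best database match in the authors' annotation, which the bounds did not use, differed along the block, though the stretches themselves were set after the values were seen. In the main stretch of C08 it was Brassica oleracea for 209 of 294 genes (71.1%) and Brassica napus for 36 (12.2%). Among C08 genes outside the block these were 24.0% and 53.7%. In the shared start Brassica oleracea was named for 5 of 35 (14.3%) and in the end stretch for 5 of 15 (33.3%). The second stretch was nearer to the main stretch, with Brassica oleracea for 18 of 31 genes (58.1%) and Brassica napus for 25.8%. On A09 the main stretch matched Brassica napus in 180 of 245 genes (73.5%), against 38.2% of A09 genes outside the block. The Brassica napus matches could be placed on chromosomes of the RefSeq reference gene set. Of the 36 in the C08 main stretch, 3 lay on C8 and 15 on A9, against 72.5% and 1.12% for C08 genes outside the block. Of 178 placed in the A09 main stretch, 132 lay on A9 and 33 on C8. What else the database held for each species is not given in the sources used here, and no test was made.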

How the data were processed

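Poly-A RNA of single leaves at a very young stage was sequenced from both fragment ends. The authors deposited TPM per transcript model and leaf (185771 models); the submitters' processing notes name cutadapt 1.9, and which aligner, build and annotation were used is not stated there. The authors' deposited mean TPM, largest group mean (a signal on the TPM scale), signed fold change, log2 fold change and p-values were not used. How deeply a leaf was sequenced cannot be read from TPM and is unknown, so no counting interval is given and precision rests on 2 leaves per line; no label names separate batches, so p-values measure only the spread between these leaves.

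TPM were summed per gene. Genes with 1 TPM or more in 2 or more leaves were tested with limma 3.58.1 (R 4.3.3) on log2(TPM + 1), hairy minus glabrous, with a variance trend and robust shrinkage; p-values were adjusted by Benjamini and Hochberg's method over every tested gene, and the code was tested on simulated data. A fold on this scale understates the change of low genes. Pairs, shares and sums were computed with Python 3.11.15 and pandas 2.3.3. The suffix of the gene identifiers is left out. The members, gene lists and tests were chosen with earlier results of these data known.

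Named genes were the 12 pairs of highest total, list genes with members at 5 TPM or more, 3 expressed genes on each side of each bound, up to 5 called members against the majority, hairy-only or glabrous-only members without a partner, and the 6 pairs of most different sums; the others (such as RLP54, TPX2, MC1, IAA17, LSH6, NIMIN1, TOC33 and genes at the stretch borders) were chosen after their values were seen. Alternatives were scaling, pseudocount, low-value filter, variance prior, replicate block, leaving out each leaf, on and off thresholds, and pair rules. The replicate numbers do not mark a shared plant or day in the labels.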

Additional observations from a re-analysis of the deposited data

How the results depend on the processing

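Over 2 scalings, a pseudocount of 0.1 TPM, no low-value filter and no variance trend, C08 calls higher in hairy stayed between 104 and 113 (110 as reported) and A09 calls lower between 6 and 13 (9 as reported). With 1 leaf left out, where the lone leaf of a line is taken to vary like the other line, C08 calls ran from 51 to 89 higher and from 0 to 1 lower (2 to 5 at an unadjusted p under 0.05), and A09 calls from 0 to 1 higher and from 0 to 6 lower (5 to 47 at an unadjusted p under 0.05). All tested genes ran from 723 to 2314 higher and from 641 to 1539 lower. Same-numbered leaves deviated against each other (correlation -0.407), so the numbers do not pair the leaves; with the replicate block the calls were 105 higher and 2 lower on C08, 1 higher and 5 lower on A09, and 1834 higher and 1704 lower in all. With the crossed pairing as the replicate block, chosen after seeing the data, they were 121 and 3, 2 and 39, and 3921 and 3039. Members on in 1 line only: with the other line listed at 0, C08 had 36 hairy-only and A09 had 1 glabrous-only; with 2 TPM on and 0.5 TPM off, C08 had 69 hairy-only and 1 glabrous-only. Without 1 leaf, C08 had 62 to 83 hairy-only and 2 to 3 glabrous-only, A09 had 2 to 3 glabrous-only, and A09 had 0 hairy-only members under every threshold and leaf tried. The median C08 share in hairy was 52.3%, 50.4% in pairs of at least 5 TPM in every leaf and 52.0% to 54.3% without 1 leaf. In glabrous it was 0.593%, 0.332% in the main stretch alone (a stretch chosen after seeing the data) and 0.297% to 0.665% without 1 leaf. The median difference of pair sums, 0.16, was 0.07 to 0.18 under the pair rules and the pseudocount and 0.0021 to 0.38 without 1 leaf. Of 638 values for 58 differences of named copies, 53 lost their call, 7 gained one and none of those called changed sign; the causes were not tested. Of the 638 values 18 changed sign, all for copies not called in the main fit. For 26 named pair sums, 18 of 156 values changed sign. The unknown read depth and 2 leaves per line limit all calls, above all for genes near 1 TPM.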
